A study of Homo sapiens with 12 samples.

Results

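Small nucleolar RNAs (snoRNAs) and the genes that carry them were followed in gastric cancer cells made to overexpress ESRRG, the estrogen-related receptor gamma, an orphan nuclear receptor. The members were every gene whose symbol on the array begins with SNORA, SNORD or SNHG, together with GAS5 and DANCR. This gave 303 probes of 295 genes, out of 47323 probes and 20046 named genes on the array. They comprised 18 host genes (23 probes), 176 C/D box snoRNAs (178 probes) and 101 H/ACA box snoRNAs (102 probes). The members were chosen by symbol, but the family itself was selected on its measured changes, ESRRG OE against control in both lines, so its counts and adjusted p-values are given as a description.

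The comparison had 4 groups of 3 samples, 12 in all: ESRRG OE AGS, control AGS, ESRRG OE MKN45 and control MKN45. AGS and MKN45, established lines from human gastric adenocarcinomas, each received either a lentiviral vector carrying the full-length ESRRG cDNA (ESRRG OE) or a control lentiviral vector (control). In both lines, cells grown in RPMI1640 medium were harvested 3 days later and their total RNA was hybridised to Illumina Human BeadChip V4 arrays. The construct drives the receptor constitutively from the EF1 promoter of a virus that entered a whole cell population, so the comparison is of transduced cultures and not of single clones. Whether the samples within a group came from separate cultures is not given, so the p-values measure only their spread, which may be technical. Epithelial markers (KRT8, KRT18, KRT19, EPCAM and CDH1) were detected on all 12 arrays by every probe, whereas the leukocyte gene PTPRC was detected on 0 arrays. COL1A1 was detected on 5 of 6 arrays of either line at values near the background, and COL1A2 and PECAM1 on at most 1 array of a line. The array has 3 probes for ESRRG. Of these, 2 were undetected on all 12 arrays and the other was lower in ESRRG OE AGS cells (log2 fold change -0.37, adjusted p = 0.00774). Whether any of them lies in the introduced cDNA is not known here, so they do not check the labels.

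snoRNAs are short, stable nucleolar RNAs that guide the chemical modification of ribosomal RNA. C/D box snoRNAs direct 2′-O-methylation with the methyltransferase fibrillarin, and H/ACA box snoRNAs direct pseudouridylation with dyskerin. In human cells most of them lie in introns of a host gene and are released from the excised intron by debranching and trimming by exonucleases, while the exons are spliced into a separate RNA. Many host genes encode ribosomal proteins or nucleolar proteins. Others, the SNHG genes, GAS5 and DANCR, yield spliced RNAs that encode no known protein, and several of these RNAs are degraded by nonsense-mediated decay when ribosomes engage them. Host gene transcripts often begin with a C followed by a run of pyrimidines (a 5′ terminal oligopyrimidine start), the hallmark of transcripts whose translation follows growth signalling. U3 (SNORD3A and its copies) is an exception to the intronic rule, being transcribed from promoters of its own and acting in the cleavage of the ribosomal RNA precursor.

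The start regions of 7 host genes are shown because the probes of these genes moved in different ways. Those of SNHG12, DANCR, SNHG5 and SNHG7 fell in both lines, though several settings lose SNHG5 calls. The bright probe of SNHG32 rose in AGS cells. That of SNHG1 passed as lower in AGS cells by a small change that several settings lose, and that of SNHG8 passed the test in neither line. They come from the RefSeq promoter table of build GRCh38.p14, which held 15 of the 18 host genes, and each is read 5′ to 3′ on the strand of the gene. SNHG12 (chr1:28581824-28582123, minus strand) and DANCR (chr4:52712144-52712443, plus strand) are given as 300 bases, 250 before the annotated start and 50 after it. The others are given as 60 bases, 20 before the start and 40 after it: SNHG5 (chr6:85678694-85678753, minus), SNHG7 (chr9:136728145-136728204, minus), SNHG32 (chr6:31834896-31834955, plus), SNHG8 (chr4:118278742-118278801, plus) and SNHG1 (chr11:62855846-62855905, minus). Capitals mark a C followed by at least 4 pyrimidines (C or T) that begins within 5 bases of the annotated start, and SNHG1 has none.
SNHG12: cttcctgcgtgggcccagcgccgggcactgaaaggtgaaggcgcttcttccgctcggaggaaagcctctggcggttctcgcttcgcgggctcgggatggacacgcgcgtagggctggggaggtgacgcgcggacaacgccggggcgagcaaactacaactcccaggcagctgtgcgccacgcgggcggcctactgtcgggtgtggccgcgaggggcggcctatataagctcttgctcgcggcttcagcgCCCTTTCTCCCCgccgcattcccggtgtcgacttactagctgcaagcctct
DANCR: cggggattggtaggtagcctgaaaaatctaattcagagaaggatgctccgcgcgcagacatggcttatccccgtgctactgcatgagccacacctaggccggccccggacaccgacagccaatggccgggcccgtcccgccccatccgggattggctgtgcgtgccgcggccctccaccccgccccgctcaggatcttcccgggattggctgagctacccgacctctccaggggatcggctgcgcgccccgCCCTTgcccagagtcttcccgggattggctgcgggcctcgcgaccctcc
SNHG5: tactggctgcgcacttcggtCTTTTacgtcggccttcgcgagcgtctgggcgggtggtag
SNHG7: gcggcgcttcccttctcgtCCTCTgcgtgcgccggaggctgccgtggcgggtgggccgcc
SNHG32: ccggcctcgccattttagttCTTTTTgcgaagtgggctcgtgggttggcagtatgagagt
SNHG8: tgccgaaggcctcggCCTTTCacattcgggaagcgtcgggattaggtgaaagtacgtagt
SNHG1: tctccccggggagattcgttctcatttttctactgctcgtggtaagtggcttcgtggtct
Such a pyrimidine run, searched on the strand of the gene only, was found at the start of 8 of the 15 host genes, and at 21.1% of all 35116 promoter windows of the table. The run was present both in genes whose RNA fell (SNHG12, DANCR, SNHG5, SNHG7) and in genes whose RNA rose in AGS cells or did not pass the test (SNHG32, SNHG8). The extended estrogen-related receptor element TCAAGGTCA, searched on both strands, matched 0 of the 15 windows and 0.353% of all windows. Its core AAGGTCA, which every TCAAGGTCA also contains, matched 1 window, that of GAS5, and 3.92% of all windows. These are matches of letters in the window and not measured sites.

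An array probe reports labelled RNA, and the amplification kit used primes on poly(A) tails, which mature snoRNAs lack. Which RNA each snoRNA probe reported, the mature snoRNA, a precursor or the host transcript, was not tested. Whether a host gene probe reported the spliced RNA or its precursor was not tested either. Values are the deposited quantile-normalized log2 intensities, and a detection p-value under 0.05 marks a probe as detected on an array. A probe was tested in a line when it was detected on at least 3 of its 6 arrays. In AGS cells 139 of the 303 probes (134 genes) were tested, and in MKN45 cells 150 (144 genes). Of the 303, 136 were tested in both lines, 3 in AGS only, 14 in MKN45 only and 150 in neither, and 117 were detected on none of the 12 arrays. Only through detections in control cells did 4 probes pass in AGS and 1 in MKN45, and only through detections in ESRRG OE cells did 0 pass in AGS and 2 in MKN45. GAS5, SNHG3, SNHG10 and SNHG20 were tested in neither line. GAS5, named for its accumulation in growth-arrested cells, gave 6.85, 6.86 and 6.84 in ESRRG OE AGS cells and 6.85, 7.10 and 7.20 in control AGS cells, with 0 and 2 of the 3 arrays detected, and 6.86, 6.90 and 6.93 in ESRRG OE MKN45 cells and 6.80, 6.85 and 6.98 in control MKN45 cells, with 0 arrays detected.

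ESRRG OE cells had lower values than control cells for much of the detected family in both lines. In AGS cells 79 of the 139 tested probes (56.8%) were lower and 6 were higher at an adjusted p under 0.05 (limma, Benjamini-Hochberg over all probes tested), and 54 did not pass. Over all 19536 probes tested in that line, 22.7% were lower and 20.3% higher. In MKN45 cells 74 of 150 (49.3%) were lower, 0 were higher and 76 did not pass, beside 17.3% lower and 17% higher of all 20143 probes tested. The falls include SNORA16A, SNORA75 and SNORD14D in AGS and SNORA52 in MKN45. These passed the filter through control arrays alone, so the filter favoured a fall for them, and the later counts include them too. The 3 samples of ESRRG OE lay wholly below the 3 control samples for 77 of the 79 probes that fell in AGS (97.5%) and 68 of the 74 that fell in MKN45 (91.9%), much as for all probes called lower (96.6% and 94%). An array on bulk RNA cannot tell fewer expressing cells from less RNA per cell. The median change over the tested members was -0.32 on the log2 scale in AGS cells and -0.24 in MKN45 cells, against a median of -0.02 in either line over all tested probes. When arrays were scaled to 1 median instead of quantile normalized, the median of all probes shifted by 0.096 in AGS and 0.137 in MKN45, and 71.3% and 89.5% of all calls were then increases, against 47.1% and 49.5% with the deposited values. The members' median under that scaling was -0.19 in AGS and -0.12 in MKN45, with 54 and 23 probes lower, where 11.1% and 3.03% of all probes were lower. Relative to all probes, the members' median then lay at -0.27 in AGS and -0.24 in MKN45, against -0.30 and -0.22 with the deposited values.

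**Figure D1:**
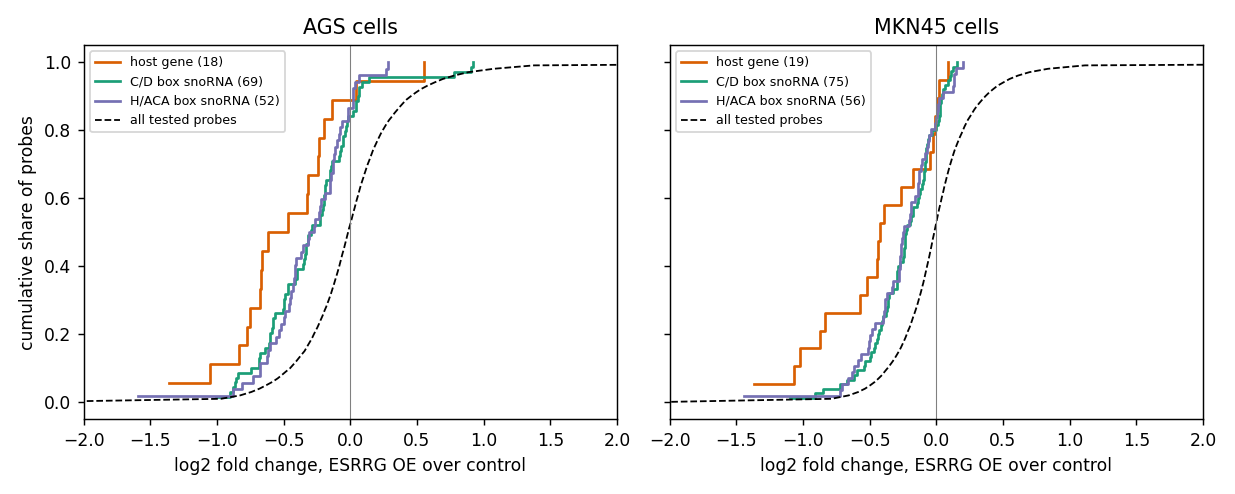
Cumulative share of probes (y axis) at or below a log2 fold change, ESRRG OE over control (x axis, shown between -2 and 2), for host genes, C/D box snoRNAs and H/ACA box snoRNAs in AGS (left) and MKN45 (right) cells, with all tested probes dashed. The 3 solid curves lie left of the dashed one over most of the range in both lines, with medians of -0.54, -0.29 and -0.29 in AGS and -0.42, -0.22 and -0.25 in MKN45.

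The 3 classes of member shared this direction. Among host genes, 14 of 18 tested probes fell and 1 rose in AGS, and 12 of 19 fell in MKN45. Among C/D box snoRNAs, 37 of 69 fell and 3 rose in AGS, and 34 of 75 fell in MKN45. Among H/ACA box snoRNAs, 28 of 52 fell and 2 rose in AGS, and 28 of 56 fell in MKN45. In MKN45 cells 0 members of any class rose. Many members lay in the dim part of the array, where few probes of any kind were called. With all tested probes ranked by mean level, the dimmest quartile held 45 members in AGS, of which 11 fell, beside 6.2% of all probes of that quartile, and 49 in MKN45, of which 9 fell, beside 3.16%. In the quartile just above the median level, 23 of 29 members fell in AGS, beside 30.7% of all probes, and 20 of 29 fell in MKN45, beside 24.9%.

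The host gene RNA with the deepest fall in both lines was that of DANCR, a spliced RNA first described as a brake on differentiation of epidermal progenitor cells. DANCR gave 8.37, 8.42 and 8.54 in ESRRG OE AGS cells, against 9.74, 9.88 and 9.80 in control AGS cells, and 8.49, 8.62 and 8.60 in ESRRG OE MKN45 cells, against 9.79, 10.10 and 9.93 in control MKN45 cells. The groups were far apart in both lines. The log2 fold change was -1.36 ± 0.09 in AGS and -1.37 ± 0.09 in MKN45 (SE, n = 3 per group, limma adjusted p = 1.09e-08 and 1.84e-07), or values 2.57-fold and 2.58-fold lower. SNORA26, the H/ACA box snoRNA inside DANCR, gave 7.05, 7.01 and 7.01 in ESRRG OE AGS cells, against 7.71, 7.67 and 7.56 in control AGS cells. In MKN45 cells it gave 7.09, 7.02 and 7.18 with ESRRG and 7.73, 7.77 and 7.65 with the control vector. It fell in both lines as well, with a log2 fold change of -0.62 in AGS and -0.62 in MKN45.

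SNHG12 carries several snoRNAs in its introns, and its own probe, SNORA61 and SNORD99 fell in both lines. The SNHG12 probe gave 7.67, 7.68 and 7.94 in ESRRG OE AGS cells, against 8.62, 8.68 and 8.51 in control AGS cells, and 7.62, 7.53 and 7.78 in ESRRG OE MKN45 cells, against 8.39, 8.54 and 8.50 in control MKN45 cells. Its log2 fold change was -0.84 ± 0.09 in either line (SE, n = 3 per group, limma adjusted p = 4.78e-06 in AGS and 1.06e-05 in MKN45). SNORA61, an H/ACA box snoRNA, had the largest change of any tested member in both lines: 9.37, 9.37 and 9.49 in ESRRG OE AGS cells, against 10.99, 11.08 and 10.92 in control AGS cells, and 9.29, 9.19 and 9.25 in ESRRG OE MKN45 cells, against 10.64, 10.75 and 10.67 in control MKN45 cells. Its values were 3.01-fold lower in AGS and 2.71-fold lower in MKN45, at log2 fold changes of -1.59 ± 0.08 and -1.44 ± 0.08 (SE, n = 3 per group, limma adjusted p = 2.13e-09 and 2.31e-08). SNORD99, a C/D box snoRNA, gave 7.39, 7.45 and 7.42 in ESRRG OE AGS cells, against 8.30, 8.46 and 8.52 in control AGS cells, and 7.27, 7.32 and 7.35 in ESRRG OE MKN45 cells, against 8.37, 8.51 and 8.36 in control MKN45 cells. It was 2.01-fold lower in AGS and 2.14-fold lower in MKN45. SNORA16A, the third tested snoRNA of the gene, was detected on 0 of 3 ESRRG OE AGS arrays and 3 of 3 control AGS arrays, so that it passed the filter through the control arrays alone and had only a bound there, at least 1.32-fold lower (control mean against the lowest detected signal of each ESRRG OE array). In MKN45 cells, where 1 of 3 ESRRG OE arrays detected it, its log2 fold change was -0.50 (adjusted p = 0.000352).

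**Figure D2:**
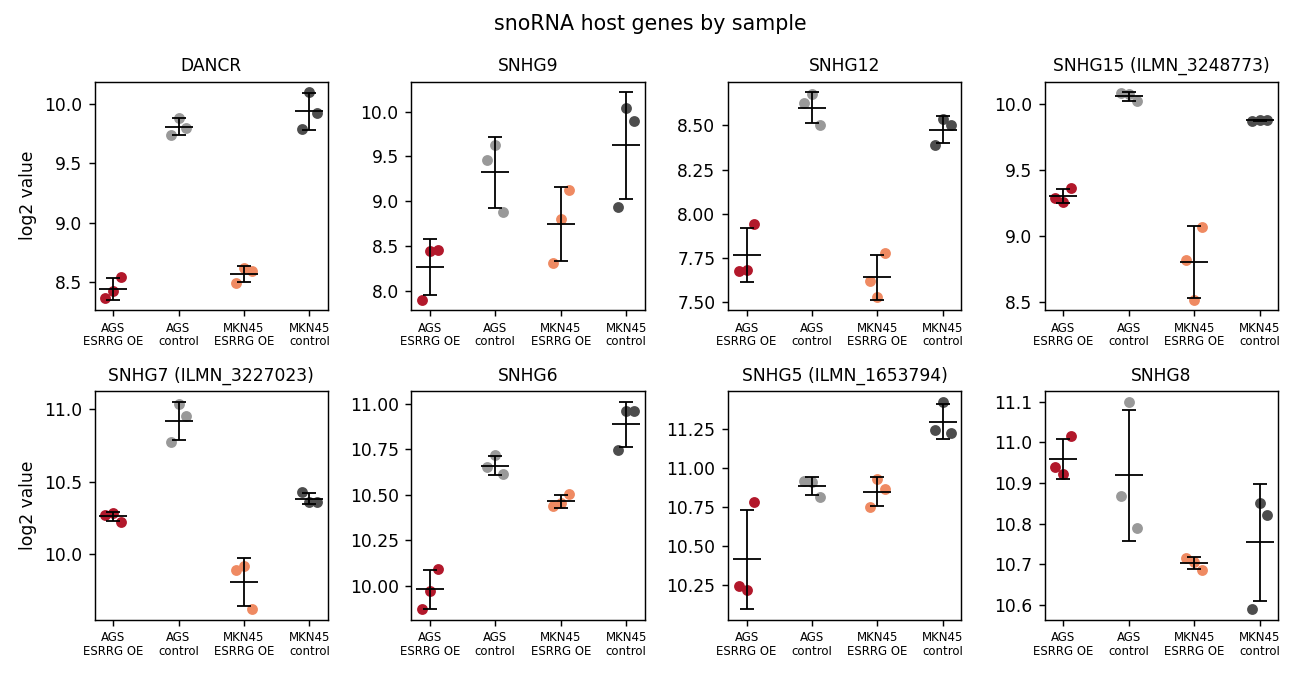
Deposited log2 value (y axis) in each of the 12 samples (points), with the mean and SD of the 3 samples of each group (bars), for 8 host gene probes; each panel has its own axis. DANCR, SNHG12, SNHG15, SNHG7, SNHG6 and SNHG5 lay lower in every ESRRG OE sample than in any control sample of the same line, SNHG9 did so in AGS cells but overlapped in MKN45 cells, and SNHG8 overlapped in both lines.

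SNHG9 and SNHG15 followed. SNHG9 gave 7.90, 8.44 and 8.46 in ESRRG OE AGS cells, against 9.46, 9.63 and 8.88 in control AGS cells. In MKN45 cells it gave 8.31, 8.80 and 9.13 with ESRRG and 8.94, 10.04 and 9.89 with the control vector. The MKN45 groups overlapped, since 1 control sample lay below 1 ESRRG OE sample, and the fall there (-0.88, adjusted p = 0.0124) did not pass when each probe's own spread was used (adjusted p = 0.221) or under scaling to 1 median (0.167). In AGS cells it was -1.05 (adjusted p = 0.000142), and 0.0651 with each probe's own spread. The first of the 2 SNHG15 probes, ILMN_3248773, gave 9.29, 9.26 and 9.37 in ESRRG OE AGS cells, against 10.08, 10.07 and 10.02 in control AGS cells, and 8.82, 8.52 and 9.07 in ESRRG OE MKN45 cells, against 9.87, 9.88 and 9.87 in control MKN45 cells. The second, ILMN_1898124, gave 9.18, 9.36 and 9.24 in ESRRG OE AGS cells, against 9.78, 9.93 and 9.92 in control AGS cells, and 8.64, 8.56 and 8.78 in ESRRG OE MKN45 cells, against 9.66, 9.86 and 9.53 in control MKN45 cells. The probes gave nearly the same changes as each other: -0.75 and -0.62 in AGS, and -1.07 and -1.02 in MKN45. The larger change in MKN45 did not pass the test of the difference between lines (adjusted p = 0.18 and 0.0628).

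SNHG7, SNHG6 and SNHG5 fell by less. SNHG7 has 3 probes, which changed by between -0.66 and -0.77 in AGS and between -0.44 and -0.57 in MKN45. Its probe ILMN_3227023 gave 10.27, 10.29 and 10.22 in ESRRG OE AGS cells, against 10.78, 11.03 and 10.95 in control AGS cells, and 9.89, 9.92 and 9.62 in ESRRG OE MKN45 cells, against 10.43, 10.36 and 10.36 in control MKN45 cells. Its probe ILMN_3233205 gave 7.63, 7.82 and 7.68 in ESRRG OE AGS cells, against 8.33, 8.63 and 8.49 in control AGS cells, and 7.39, 7.37 and 7.25 in ESRRG OE MKN45 cells, against 7.79, 7.76 and 7.77 in control MKN45 cells. All SNHG7 groups were separate within each line. Under scaling to 1 median ILMN_3227023 did not pass in MKN45 (adjusted p = 0.172). SNHG6 changed by -0.68 in AGS and by -0.42 in MKN45, again with no overlap. SNHG5, a short host RNA with a classic oligopyrimidine start, has 2 probes. ILMN_1653794 gave 10.25, 10.22 and 10.78 in ESRRG OE AGS cells, against 10.92, 10.91 and 10.82 in control AGS cells, and 10.76, 10.94 and 10.87 in ESRRG OE MKN45 cells, against 11.24, 11.43 and 11.23 in control MKN45 cells. ILMN_2200659 gave 10.68, 10.81 and 10.97 in ESRRG OE AGS cells, against 11.17, 11.06 and 11.18 in control AGS cells, and 11.27, 11.26 and 11.09 in ESRRG OE MKN45 cells, against 11.45, 11.43 and 11.55 in control MKN45 cells. Both SNHG5 probes passed the test in both lines, with changes of -0.47 and -0.31 in AGS and of -0.45 and -0.27 in MKN45. Under scaling to 1 median they passed in neither line, at values between -0.28 and -0.01. In AGS both also lost the call under background correction (adjusted p = 0.0519 and 0.0615) and with each probe's own spread (0.142 and 0.0739). In MKN45 ILMN_2200659 lost its call under these settings too (0.0992 and 0.0756). It was also lost there without any 1 of MKN45 control 3 or MKN45 ESRRG OE 2 or 3 (0.0501 to 0.11), and in AGS without AGS ESRRG OE 1 (0.072).

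Not all host genes fell. SNHG8 gave 10.94, 10.92 and 11.02 in ESRRG OE AGS cells, against 10.87, 11.10 and 10.79 in control AGS cells, and 10.72, 10.71 and 10.69 in ESRRG OE MKN45 cells, against 10.59, 10.85 and 10.82 in control MKN45 cells. The groups overlapped, and its changes were 0.04 (adjusted p = 0.767) and -0.05 (adjusted p = 0.694). SNHG1 gave 10.68, 10.57 and 10.66 in ESRRG OE AGS cells, against 10.93, 10.86 and 10.83 in control AGS cells, and 10.80, 10.86 and 10.77 in ESRRG OE MKN45 cells, against 10.85, 10.81 and 10.71 in control MKN45 cells. It fell by a small amount in AGS (-0.24, adjusted p = 0.03) and had a change of 0.02 in MKN45, and the difference between lines did not pass (0.25, adjusted p = 0.148). The call in AGS was lost under scaling to 1 median (0.706), under background correction (0.0941) and without any 1 of AGS control 1 or AGS ESRRG OE 1 or 2 (0.0527 to 0.133). SNHG32 was the only host gene that rose, and it did so in AGS cells, by its bright probe: 12.21, 12.13 and 12.10 in ESRRG OE AGS cells, against 11.58, 11.65 and 11.55 in control AGS cells. The rise was 0.55 ± 0.08 on the log2 scale (SE, n = 3 per group, limma adjusted p = 6.19e-05). In MKN45 cells that probe gave 12.01, 12.03 and 11.78 with ESRRG and 11.90, 11.99 and 11.91 with the control vector, and the groups overlapped. The other SNHG32 probe was detected on 1 AGS array and was not tested there.

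The C/D box snoRNAs guide methylation of the ribosomal RNAs, and those with the largest changes besides SNORD99 are given next. SNORD104, in SNHG25, gave 8.21, 8.46 and 8.23 in ESRRG OE AGS cells, against 9.21, 9.40 and 9.01 in control AGS cells, and 7.93, 8.36 and 8.74 in ESRRG OE MKN45 cells, against 8.66, 9.49 and 9.43 in control MKN45 cells. It was 1.87-fold lower in AGS and 1.8-fold lower in MKN45, where the groups overlapped and the call was lost with each probe's own spread (adjusted p = 0.177) and under scaling to 1 median (0.116). SNORD56, in an intron of NOP56, gave 7.17, 7.11 and 7.16 in ESRRG OE AGS cells, against 7.96, 8.04 and 8.08 in control AGS cells, and 7.18, 7.14 and 7.18 in ESRRG OE MKN45 cells, against 7.87, 7.84 and 7.96 in control MKN45 cells. SNORD65, in SNHG29, gave 7.30, 7.45 and 7.51 in ESRRG OE AGS cells, against 8.34, 8.33 and 8.19 in control AGS cells, and 7.60, 7.79 and 7.87 in ESRRG OE MKN45 cells, against 8.21, 8.50 and 8.34 in control MKN45 cells. SNORD56 and SNORD65 were lower in every ESRRG OE sample than in any control sample of the same line. SNORD52, in SNHG32, gave 7.69, 7.72 and 7.90 in ESRRG OE AGS cells, against 8.78, 8.61 and 8.50 in control AGS cells, and 8.14, 8.11 and 8.05 in ESRRG OE MKN45 cells, against 8.73, 8.62 and 8.56 in control MKN45 cells. SNORD80, in GAS5, gave 8.11, 7.96 and 8.11 in ESRRG OE AGS cells, against 8.80, 9.17 and 8.75 in control AGS cells, and 8.24, 8.30 and 8.34 in ESRRG OE MKN45 cells, against 8.98, 9.01 and 8.89 in control MKN45 cells. Both fell in both lines, with log2 fold changes in AGS and MKN45 of -0.86 and -0.53 for SNORD52 and of -0.85 and -0.67 for SNORD80. Under scaling to 1 median SNORD65 and SNORD52 did not pass in MKN45 (adjusted p = 0.0561 and 0.0785).

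SNORD12C, in ZFAS1, gave 7.95, 8.28 and 8.14 in ESRRG OE AGS cells, against 8.71, 8.73 and 8.97 in control AGS cells, and 7.69, 7.82 and 7.79 in ESRRG OE MKN45 cells, against 8.69, 8.81 and 8.52 in control MKN45 cells. SNORD57, in NOP56, gave 7.41, 7.17 and 7.29 in ESRRG OE AGS cells, against 8.17, 7.86 and 7.90 in control AGS cells, and 7.52, 7.43 and 7.69 in ESRRG OE MKN45 cells, against 8.00, 8.03 and 7.93 in control MKN45 cells. SNORD11, in NOP58, gave 7.49, 7.53 and 7.38 in ESRRG OE AGS cells, against 7.85, 7.83 and 7.93 in control AGS cells, and 7.14, 7.15 and 7.32 in ESRRG OE MKN45 cells, against 7.57, 8.08 and 7.82 in control MKN45 cells. The 3 were lower without overlap in both lines, with log2 fold changes of -0.68, -0.69 and -0.40 in AGS and of -0.91, -0.44 and -0.62 in MKN45. Under scaling to 1 median SNORD11 did not pass in AGS (adjusted p = 0.0647), nor SNORD57 in MKN45 (0.114). With each probe's own spread SNORD11 did not pass in MKN45 (0.0677). SNORD4A, in RPL23A, gave 7.93, 8.03 and 8.15 in ESRRG OE AGS cells, against 8.56, 8.63 and 8.71 in control AGS cells, and 7.66, 7.84 and 7.94 in ESRRG OE MKN45 cells, against 8.20, 8.44 and 7.94 in control MKN45 cells. It fell in both lines (-0.60 and -0.38), with the MKN45 groups meeting at 7.94. The MKN45 call was lost with each probe's own spread (adjusted p = 0.192), under background correction (0.057) and under scaling to 1 median (0.468). That call was also lost without any 1 of MKN45 control 1 or 2 or MKN45 ESRRG OE 1 or 2 (0.055 to 0.095). SNORD14D, in HSPA8, was detected on 0 of 3 ESRRG OE AGS arrays and on 3 of 3 control AGS arrays, and was at least 1.41-fold lower there.

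H/ACA box snoRNAs behaved alike. SNORA10, in RPS2, gave 8.02, 8.07 and 7.90 in ESRRG OE AGS cells, against 8.93, 8.94 and 8.76 in control AGS cells, and 7.64, 8.02 and 7.80 in ESRRG OE MKN45 cells, against 8.30, 8.46 and 8.47 in control MKN45 cells. SNORA57 gave 7.20, 7.20 and 7.07 in ESRRG OE AGS cells, against 7.79, 8.00 and 7.86 in control AGS cells, and 7.04, 7.34 and 7.25 in ESRRG OE MKN45 cells, against 7.72, 8.00 and 8.02 in control MKN45 cells. SNORA6, in RPSA, gave 7.95, 7.92 and 7.97 in ESRRG OE AGS cells, against 8.55, 8.65 and 8.67 in control AGS cells, and 7.84, 7.98 and 8.14 in ESRRG OE MKN45 cells, against 8.58, 9.02 and 8.54 in control MKN45 cells. The 3 fell in both lines without overlap, with log2 fold changes of -0.88, -0.73 and -0.68 in AGS and of -0.59, -0.70 and -0.73 in MKN45. Under scaling to 1 median SNORA10 and SNORA6 did not pass in MKN45 (adjusted p = 0.0507 and 0.0657). SNORA6 did not pass there with each probe's own spread either (0.0632). SNORA24, in SNHG8, gave 8.30, 8.24 and 8.35 in ESRRG OE AGS cells, against 8.97, 8.99 and 8.97 in control AGS cells, and 8.04, 8.02 and 8.00 in ESRRG OE MKN45 cells, against 8.59, 8.82 and 8.63 in control MKN45 cells. SNORA25, in TAF1D, gave 8.41, 8.43 and 8.44 in ESRRG OE AGS cells, against 9.05, 8.96 and 8.88 in control AGS cells, and 8.18, 8.22 and 8.44 in ESRRG OE MKN45 cells, against 8.94, 8.91 and 8.88 in control MKN45 cells. SNORA70, in RPL10, gave 8.72, 8.69 and 8.70 in ESRRG OE AGS cells, against 9.16, 9.40 and 9.20 in control AGS cells, and 8.28, 8.11 and 8.16 in ESRRG OE MKN45 cells, against 8.61, 8.85 and 8.63 in control MKN45 cells. They too were separate in both lines, at changes between -0.51 and -0.68. Under scaling to 1 median SNORA70 did not pass in MKN45 (adjusted p = 0.205). SNORA77, in ATP2B4, and SNORA84, in IARS1, were the H/ACA box snoRNAs that rose in AGS cells, by 0.26 and 0.28. Their changes of 0.13 and 0.20 in MKN45 did not pass (adjusted p = 0.273 and 0.0956), and neither did the difference between lines (adjusted p = 0.531 and 0.75).

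The 3 U3 probes went the other way in AGS cells. SNORD3A gave 8.57, 8.95 and 8.96 in ESRRG OE AGS cells, against 7.97, 8.01 and 7.75 in control AGS cells. SNORD3C gave 7.82, 8.11 and 8.07 in ESRRG OE AGS cells, against 7.17, 7.38 and 7.13 in control AGS cells. SNORD3D gave 8.74, 9.33 and 9.11 in ESRRG OE AGS cells, against 8.33, 8.29 and 7.84 in control AGS cells. For all 3 the lowest ESRRG OE sample lay above the highest control sample, and the log2 fold changes were 0.92 ± 0.11, 0.78 ± 0.10 and 0.90 ± 0.14 (SE, n = 3 per group, limma adjusted p = 9.21e-06, 1.67e-05 and 0.00012). With each probe's own spread the SNORD3D rise did not pass (adjusted p = 0.055). In MKN45 cells the groups overlapped throughout. SNORD3A gave 7.85, 8.68 and 8.53 in ESRRG OE MKN45 cells, against 7.90, 8.69 and 8.16 in control MKN45 cells. SNORD3C gave 7.29, 7.66 and 7.59 in ESRRG OE MKN45 cells, against 7.25, 7.69 and 7.48 in control MKN45 cells. SNORD3D gave 7.92, 8.93 and 9.00 in ESRRG OE MKN45 cells, against 8.08, 8.91 and 8.47 in control MKN45 cells. The changes of 0.10, 0.04 and 0.13 did not pass. The copies of U3 are nearly identical, so the probes may report the same RNA and count as 1 observation. The difference between lines passed for SNORD3C (-0.74, adjusted p = 0.0094) and not for SNORD3A (-0.82, adjusted p = 0.0611) or SNORD3D (-0.78, adjusted p = 0.156). That of SNORD3C did not pass with each probe's own spread (adjusted p = 0.0953).

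**Figure D3:**
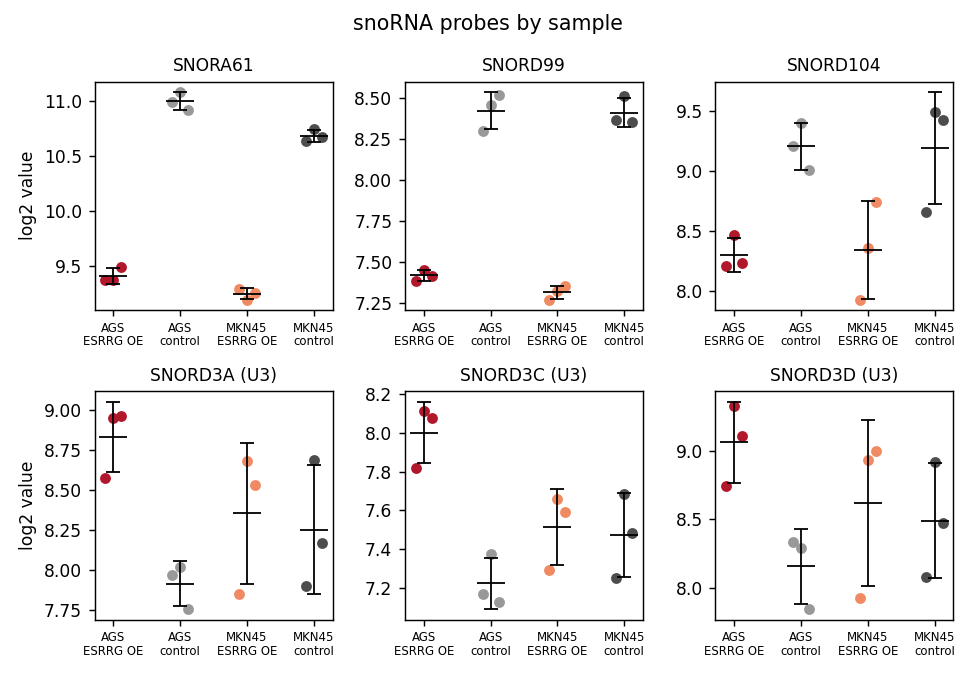
Deposited log2 value (y axis) in each of the 12 samples (points), with the mean and SD of the 3 samples of each group (bars), for 6 snoRNA probes; each panel has its own axis. SNORA61, SNORD99 and SNORD104 lay lower with ESRRG in AGS cells, and the first and second of these without overlap in MKN45 cells too, whereas the 3 U3 probes lay higher with ESRRG in AGS cells and overlapped in MKN45 cells.

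The snoRNAs were then set beside the gene around them, located by containment in the gene table of GRCh38.p14 without regard to strand. In AGS cells 77 snoRNA probes lay in exactly 1 named gene that was itself tested (47 genes), and 47 of these snoRNA probes fell. The surrounding gene also fell for 16 of the 47, did not pass for 22 and rose for 9. Among the 47 are SNORA16A, SNORA75 and SNORD14D, which passed the filter through control arrays alone. In MKN45 cells there were 85 such probes (54 genes), of which 46 fell, with the surrounding gene lower for 14, not past the threshold for 26 and higher for 6. A gene around several snoRNAs was counted once for each. The rises were those of TAF1D, ZFAS1, SNHG32 and SNX5 in AGS and of TAF1D, SNX5 and KANSL2 in MKN45. Over all probes 22.7% were lower and 20.3% higher in AGS, and 17.3% lower and 17% higher in MKN45. The median change of these snoRNA probes was -0.34 in AGS and -0.25 in MKN45. That of the surrounding genes, each gene counted once, was -0.15 over 47 genes in AGS and -0.05 over 54 in MKN45, so the medians are over different units. Across the probe pairs the changes of snoRNA and gene had a Pearson r of 0.26 in AGS (n = 77) and 0.36 in MKN45 (n = 85), as a description over pairs that share genes and arrays. Tested snoRNAs within no named gene numbered 8, the U3 copies among them, and of these 1 fell in each line while 3 rose in AGS.

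Single loci showed each pattern. In NOP56, which encodes a core protein of the C/D particle, SNORD56 and SNORD57 fell as did the gene, whose change was -0.89 in AGS and -0.80 in MKN45. SNORD110, the third tested snoRNA there, had changes of -0.20 and -0.19 that did not pass. HSPA8, a constitutive heat shock chaperone, fell by 2.17 on the log2 scale in AGS and by 1.22 in MKN45. SNORD14C inside it changed by -0.56 in AGS and -0.46 in MKN45 and SNORD14D by -0.54 in MKN45, while SNORD14D has only the bound given above in AGS. The size of the fall was not tested between a gene and its snoRNAs. In TAF1D, a subunit of an initiation factor of RNA polymerase I, 4 of the 5 snoRNAs tested in both lines fell in each of them while the brightest probe of the gene rose (0.29, adjusted p = 0.016 in AGS; 0.23, adjusted p = 0.0409 in MKN45). A second TAF1D probe changed by -0.02 and 0.15 and did not pass. RPS2, a ribosomal protein gene, had changes of 0.05 and 0.04 that did not pass, while both of its tested snoRNAs (SNORA10 and SNORA64) fell in both lines. SNORD48 and SNORD52 fell in both lines inside SNHG32, whose own RNA rose in AGS. SNORA24 fell in both lines inside SNHG8, whose own RNA did not pass in either. ZFAS1 and SNX5 were singled out after their values were seen. ZFAS1, a non-coding host gene, rose in AGS (0.49, adjusted p = 0.00018) while SNORD12 and SNORD12C inside it fell, and it changed by 0.00 in MKN45, where both snoRNAs fell as well. SNORD12B, the third tested snoRNA of ZFAS1, had changes of 0.09 in AGS and -0.06 in MKN45 that did not pass. In SNX5, around SNORD17, 1 probe rose (0.61 and 0.84) and the other fell (-0.37 and -0.34) in AGS and MKN45, so no direction of the gene can be given. The converse also occurred: in SNHG7, which fell, SNORA17B had changes of -0.07 and -0.08 that did not pass. In AGS cells SNORA77 and SNORA84 rose along with the genes around them, ATP2B4 (0.77) and IARS1 (0.74). In MKN45 cells these genes rose too (0.49 and 0.42), while the snoRNAs did not pass. ATP2B4 and IARS1 were likewise picked after their values were seen.

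**Figure D4:**
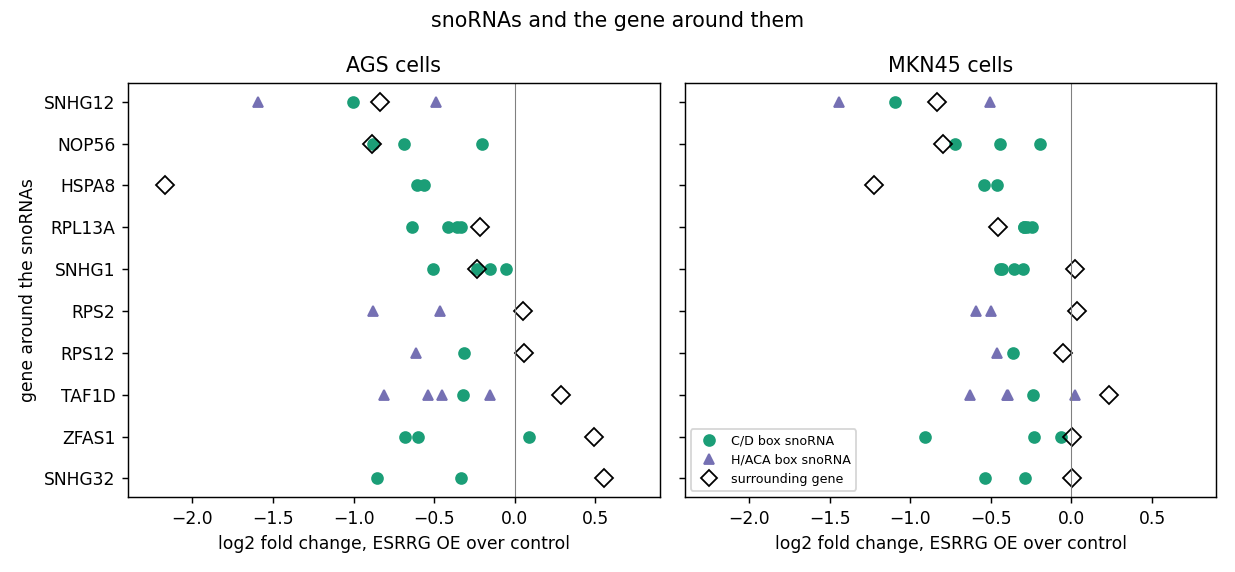
Log2 fold change, ESRRG OE over control (x axis), of the snoRNA probes tested in both lines (filled symbols) within each of 10 genes (rows) and of the brightest tested probe of the gene itself (open diamonds), in AGS (left) and MKN45 (right) cells. At SNHG12 and NOP56 the gene lies among or beside its snoRNAs, all below 0, the gene lies left of its snoRNAs at HSPA8, and the gene lies right of them at RPS2, TAF1D and SNHG32 in both lines.

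Genes encoding proteins that act with snoRNAs also moved, measured as RNA only. Core C/D proteins fell except for 1: in AGS and MKN45, NOP56 changed by -0.89 and -0.80, NOP58 by -0.30 and -0.53, and fibrillarin (FBL) by -0.28 and -0.48, while SNU13, which binds the K-turn of the RNA, rose by 0.46 and 0.28. Thus 3 of 4 fell and 1 rose in each line, with a median of -0.29 in AGS and -0.51 in MKN45. Over all probes 22.7% were lower in AGS and 17.3% in MKN45. Of the 4 H/ACA proteins 3 fell in each line: NHP2 changed by -0.98 and -0.53, the pseudouridine synthase dyskerin (DKC1) by -0.65 and -0.62, and GAR1 by -0.53 and -0.48. NOP10 had changes of -0.09 and -0.03 that did not pass. The H/ACA median was -0.59 in AGS and -0.50 in MKN45.

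Among 15 assembly and trafficking factors, 8 fell and 1 rose in AGS (median -0.28), and 4 fell and 2 rose in MKN45 (median -0.08), where over all probes 22.7% were lower in AGS and 17.3% in MKN45. The 3 deepest falls in AGS were those of COIL (-0.72), the coilin of Cajal bodies, PHAX (-0.55), an export adaptor for capped small RNAs, and SHQ1 (-0.45), an assembly chaperone of dyskerin. In MKN45 they were those of NOLC1 (-0.36), RUVBL1 (-0.31) and ZNHIT6 (-0.28). RPAP3, of a chaperone complex that builds the particles, rose in both lines (0.25 and 0.27), and SMN1 rose in MKN45 (0.49), though its probe may not be told apart from the near-identical SMN2. Of 39 protein-coding host genes tested, 13 fell and 3 rose in AGS (median -0.14) and 10 fell and 2 rose in MKN45 (median -0.09), beside the same 22.7% and 17.3% of all probes. HSPA8, NOP56 and DKC1 fell most in AGS and HSPA8, NOP56 and PPAN (-0.78) in MKN45. HSPA9 rose in both lines (0.62 and 0.30), as did TAF1D, and IPO7 rose in AGS (0.42). NOP56 and DKC1 belong to this list and to those of the particle proteins.

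Factors of nonsense-mediated decay, the route that degrades several spliced host RNAs, fell or did not pass. Over all probes 22.7% were lower in AGS and 17.3% in MKN45. In AGS 6 of 10 decay factors fell and 0 rose (median -0.38), with CASC3 (-0.69) and MAGOH (-0.67), of the exon junction complex, and UPF2 (-0.55) at the front. In MKN45 3 of 10 fell and 0 rose (median -0.21): MAGOH changed by -0.40, SMG8 by -0.36 and UPF2 by -0.23. Of 15 nuclear exonuclease and exosome genes, 5 fell in each line, and 1, EXOSC8, rose in AGS (0.24). EXOSC6 (-0.83 and -0.81), EXOSC4 (-0.77 and -0.80) and EXOSC2 (-0.65 and -0.60) fell most in AGS and MKN45, while the medians of the list, -0.04 and -0.05, lay near the -0.02 of all probes.

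Of the 136 probes tested in both lines, 63 (46.3%) were lower in both, beside 13% of the 18599 probes of all kinds tested in both. A further 16 passed as lower in AGS and not in MKN45, and 10 in MKN45 and not in AGS. A change below 0 in both lines was found for 110 (80.9%), beside 39.7% of all probes. Pearson's r between the changes in the lines was 0.81 across the members and 0.79 across all probes, as a description over probes that share arrays and, in part, transcripts, so the likeness of the lines was not particular to the members. The test of the difference itself, the change in MKN45 minus the change in AGS, passed for 6 of 153 members (3.92%), a share below the 8.46% of all 21080 probes tested. SNHG32 (-0.55, adjusted p = 0.00601) and SNORD3C (-0.74) were the 2 whose rise in AGS was the larger change. SNORA18, SNORD36A, SNORD68 and SNORA14B fell in AGS and had smaller changes in MKN45.

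SNORA18, in TAF1D, gave 8.09, 7.92 and 7.96 in ESRRG OE AGS cells, against 8.80, 8.77 and 8.83 in control AGS cells, and 8.14, 8.20 and 8.28 in ESRRG OE MKN45 cells, against 8.62, 8.63 and 8.58 in control MKN45 cells. It fell in both lines, with changes of -0.81 in AGS and -0.40 in MKN45, a difference of 0.41 (adjusted p = 0.0223). SNORD36A, in RPL7A, gave 7.81, 7.71 and 7.95 in ESRRG OE AGS cells, against 8.75, 8.47 and 8.48 in control AGS cells, and 8.34, 8.45 and 8.35 in ESRRG OE MKN45 cells, against 8.52, 8.87 and 8.48 in control MKN45 cells. Its fall of -0.74 passed in AGS only, and the difference was 0.50 (adjusted p = 0.0411). SNORD68, in RPL13, gave 7.75, 7.79 and 7.78 in ESRRG OE AGS cells, against 8.31, 8.39 and 8.38 in control AGS cells, and 8.01, 7.91 and 7.95 in ESRRG OE MKN45 cells, against 7.97, 8.34 and 8.12 in control MKN45 cells. The MKN45 groups overlapped, and the difference was 0.40 (adjusted p = 0.0498). SNORA14B gave 7.75, 7.69 and 7.81 in ESRRG OE AGS cells, against 8.03, 8.02 and 8.14 in control AGS cells, and 8.31, 8.19 and 8.30 in ESRRG OE MKN45 cells, against 8.15, 8.35 and 8.16 in control MKN45 cells. It too overlapped in MKN45, with a difference of 0.37 (adjusted p = 0.0498). Under scaling to 1 median 0 of the 6 differences passed (adjusted p between 0.0913 and 0.199), and leaving out 1 array at a time gave between 2 and 11 members past the threshold. SNORA14B and SNORD68 also lost the call under background correction (0.0595 and 0.0761) and with each probe's own spread (0.0684 and 0.103). With the replicate number as a block they lost it too (0.069 and 0.0665). SNORD36A lost it under background correction (0.0693) and with its own spread (0.15), and SNORD3C with its own spread (0.0953). SNORA18 lost it without any 1 of AGS ESRRG OE 2, MKN45 control 3 or MKN45 ESRRG OE 3 (0.0508 to 0.0701). Under scaling to 1 median SNORA14B lost its AGS call (0.281) and SNORA18 its MKN45 call (0.38).

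**Figure D5:**
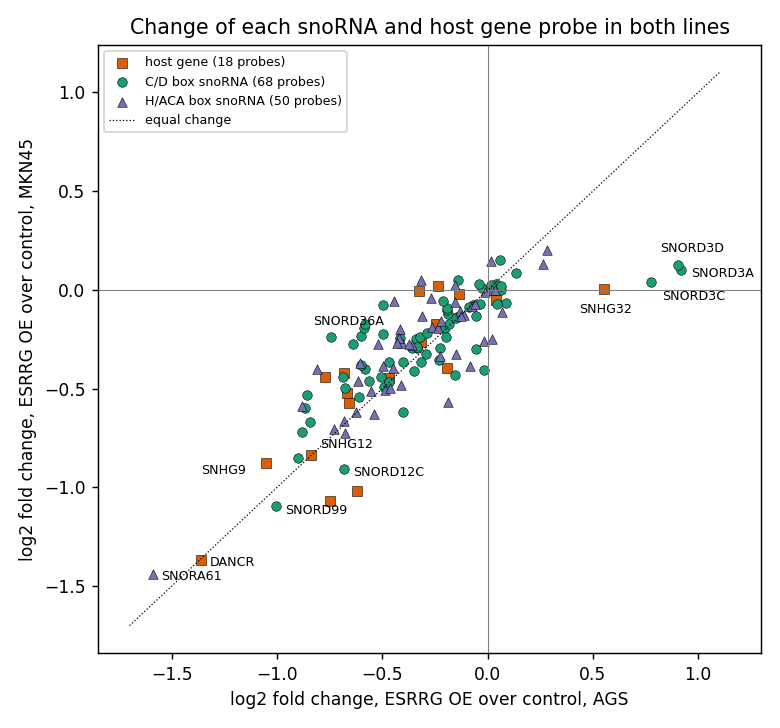
Log2 fold change, ESRRG OE over control, in AGS (x axis) and MKN45 (y axis) cells for the 136 host gene and snoRNA probes tested in both lines; the dotted line marks equal change. Of the points, 110 lie below 0 on both axes, SNORA61 and DANCR lie farthest down, and the U3 probes and SNHG32 lie to the right near 0 on the MKN45 axis.

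Between the control cells of the lines, few members differed. MKN45 control cells had higher values than AGS control cells for 3 probes and lower values for 14 of 153, beside 5.93% higher and 6.56% lower of all probes tested. SNHG5 was higher in MKN45 by both probes (0.41 and 0.34), and SNHG32 was higher as well (0.34). SNORD1A and SNORD3A had differences of 0.35 and 0.34 that did not pass. SNORD1A, in SNHG16, gave 7.97, 8.27 and 7.75 in control MKN45 cells and 7.51, 7.72 and 7.69 in control AGS cells. With ESRRG it gave 7.37, 7.55 and 7.85 in MKN45 cells and 7.59, 7.67 and 7.61 in AGS cells, so that its fall in MKN45 (-0.41, adjusted p = 0.0318, groups overlapping) stood beside -0.02 in AGS. That call was lost under background correction (adjusted p = 0.0749), under scaling to 1 median (0.388), with each probe's own spread (0.242) and without any 1 of MKN45 control 1 or 2 or MKN45 ESRRG OE 1 or 2 (0.0621 to 0.134). SNHG7 was lower in MKN45 by its 3 probes (-0.71, -0.54 and -0.37), as were SNORA70 (-0.56), SNORA10 (-0.47) and SNORD4A (-0.44). Under scaling to 1 median 1 member was lower instead of 14. With ESRRG in both, 14 probes were higher and 15 lower in MKN45 than in AGS, beside 16.6% higher and 14.3% lower of all probes. SNORD16 (0.66), SNORD36A (0.56) and SNORA14B (0.52) were the highest of these relative to AGS, and SNHG15 (-0.60), SNHG17 (-0.53) and SNORA70 (-0.52) the lowest.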

How the data were processed

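RNA of the 12 samples (500 ng of total RNA each) was labelled and hybridised by the authors. Per the labels, amplification used an Ambion kit. A BeadArray Reader was used for scanning, and GenomeStudio appears among the submitters' processing notes, with no version. Linear intensity values per probe were deposited, not background-subtracted (lowest value 69.7, array medians 98.4 to 136.9). For every probe and array the deposited table holds a detection p-value against the negative controls. The authors deposited log2 values after quantile normalization in limma. Quantile normalization of the intensities, done again, gave these log2 values within 5e-04. Between 18795 and 20378 probes were detected on an AGS array and between 19465 and 20397 on an MKN45 array, and the number of arrays limits the precision.

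The deposited log2 values were fitted by probe with lmFit and eBayes (R 4.3.3, limma 3.58.1): ESRRG OE against control within each line over its 6 arrays, and all 12 arrays with 4 group means for the difference between lines and for MKN45 against AGS. Probes entered with detection p-values below 0.05 on 3 or more of a line's 6 arrays (of either line for contrasts between lines). Benjamini-Hochberg adjustment ran over all probes tested, with a threshold of 0.05. Quantile normalization assumes like intensity distributions on all arrays, so a shift common to most probes would be removed. Of the probes, 30113 had 1 gene symbol in the platform annotation, 8 had several and 17202 were not named. All 295 identifiers of the family were found in the RefSeq gene table of GRCh38.p14. A surrounding gene was represented by its brightest tested probe.

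The members, the companion lists and the rule for named genes were chosen with earlier results of these data known. Values per sample are given for member probes past the threshold with a change of at least 0.5 (the 20 largest per line), for those past the test of the difference between lines, for the 5 largest differences between control samples each way, and for GAS5, DANCR, SNHG1, SNHG5, SNHG8 and SNHG12. The fit was tested on simulated data: in AGS (19536 probes), 66 of 100 probes changed by 0.5 and 99 of 100 changed by 1 were called, with 6 false calls, and in MKN45 (20143 probes) 60 and 100, with 5 false calls. Alternatives were other normalizations, background correction, detection filters, a test with each probe's own spread, a replicate block and leaving out each array.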

Additional observations from a re-analysis of the deposited data

Results flagged for a closer look

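The change in MKN45 minus the change in AGS, tested over all 12 arrays, passed for 6 of 153 member probes (3.92%), a share below the 8.46% of all probes: -0.74 for SNORD3C (adjusted p = 0.0094), -0.55 for SNHG32 (0.00601), 0.37 for SNORA14B (0.0498), 0.40 for SNORD68 (0.0498), 0.41 for SNORA18 (0.0223) and 0.50 for SNORD36A (0.0411), by limma with Benjamini-Hochberg adjustment. SNORD3C and SNHG32 were higher with ESRRG than with the control vector in 3 of 3 AGS samples and overlapped in MKN45. The other 4 were lower with ESRRG in 3 of 3 AGS samples. Of these, SNORA18 and SNORD36A lay lower without overlap in MKN45 too, and SNORD36A did not pass there. SNORA14B, SNORD68 and SNORD36A lost the call in most alternatives, among them background correction, no detection filter and each probe's own spread. With the replicate block SNORA14B and SNORD68 lost it too. SNORD3C lost it with each probe's own spread (adjusted p = 0.0953). SNORA18 lost it without any 1 of AGS ESRRG OE 2, MKN45 control 3 or MKN45 ESRRG OE 3 (0.0508 to 0.0701).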

How the results depend on the processing

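Quantile normalization done again, quantile normalization within each line and a single fit of all 12 arrays kept each count of member probes within 1.5 times its value, and so did the other settings except where given here; of the named members' values under all alternatives, 1129 kept their direction and side of the threshold, 109 kept their direction and lost the call, 2 gained it and 20, all of them not past the threshold, changed sign. Scaling to 1 median gave a median change of -0.19 in AGS and -0.12 in MKN45, 2 members higher and 23 lower in MKN45, 0 past the difference between lines, 1 lower in MKN45 than AGS controls, and 22 higher and 5 lower between ESRRG OE cells of the lines; it turned SNORD1A in AGS (0.13) and SNORD68 (0.025), SNORD36A (0.007) and SNHG8 (0.24) in MKN45. Background correction gave medians of -0.63 in AGS and -0.47 in MKN45 and 3 members past the difference between lines, no detection filter gave -0.079, -0.063 and 3, and a detection p-value under 0.01 gave medians of -0.42 and -0.31. With each probe's own spread, 46 members were lower in MKN45 and 2 passed the difference between lines. Quantile normalization within each line left 1 positive and 3 negative differences past that test, against 4 positive and 2 negative with the deposited values. SNORA14B (limma adjusted p = 0.0646), SNORD36A (0.0593) and SNORD68 (0.0805) then lost the call. The causes were not tested.

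Leaving out 1 array at a time, 72 to 77 members were lower in AGS (6 higher each time) and 54 to 71 in MKN45 (0 to 1 higher, the 1 without control replicate 2), with medians of -0.32 to -0.28 in AGS and -0.26 to -0.19 in MKN45. The difference between lines passed for 2 to 11 members: 3 without AGS control 1, AGS ESRRG OE 1 or MKN45 control 3, 2 without AGS ESRRG OE 2 and 11 without MKN45 control 2. Between controls, 1 to 4 were higher in MKN45 (1 without AGS control 2) and 7 to 15 lower (7 without MKN45 control 1, 8 without MKN45 control 3). Signs turned for uncalled values of SNORD1A (-0.084 to 0.021) and SNHG8 (-0.025 to 0.13) in AGS, and of SNHG1 (-0.021 to 0.05), SNHG32 (-0.044 to 0.085), SNORD3A (-0.075 to 0.35), SNORD3C (-0.069 to 0.15) and SNORD3D (-0.078 to 0.48) in MKN45.

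With the replicate number as a block, 6 members were higher and 80 lower in AGS, 0 higher and 77 lower in MKN45, and 6 passed the difference between lines, 2 positive and 4 negative, against 4 positive and 2 negative without it (SNORA14B at 0.069 and SNORD68 at 0.0665 lost the call, and SNORD36A gained one in MKN45 at 0.043); 4 were higher and 14 lower between controls, and 17 higher and 18 lower between ESRRG OE cells. The numbers share no stated origin, and same-numbered samples did not deviate together (correlations of -0.102, 0.215 and -0.048 in AGS and 0.233, -0.009 and -0.016 in MKN45).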

Other observations

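Sample 1 had the lowest value of its group in both ESRRG OE and control MKN45 cells for SNHG9 (8.31 and 8.94), SNORD104 (7.93 and 8.66), SNORD3A (7.85 and 7.90), SNORD3C (7.29 and 7.25) and SNORD3D (7.92 and 8.08). This was noticed after the values were seen, the sample numbers do not pair the samples, and no explanation was tested. SNORD13, another snoRNA within no named gene, which acts in acetylation of the small subunit ribosomal RNA, gave 7.05, 7.11 and 7.11 in ESRRG OE AGS cells, against 7.13, 7.35 and 7.35 in control AGS cells, and did not pass in either line (adjusted p = 0.101 in AGS and 0.499 in MKN45, limma).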
